A study of Mus musculus with 27 samples.

Results

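The mTOR pathway was followed through 46 genes, which a list of names defined: the mTOR kinase and the subunits of its complexes, the TSC complex and Rheb, the Rag GTPases with Ragulator and the lysosomal transporter Slc38a9, the folliculin and GATOR1 complexes, the sestrins and Ddit4, PI3K and AKT, and the translation and autophagy effectors. All 46 of 46 were among the 25192 gene symbols measured. Bulk RNA sequencing covered 9 groups with 3 mouse libraries each. Macrophages grown from bone marrow (BMDM), embryonic fibroblasts (MEF) and cells labelled aortic endothelial (MAEC) were each unstimulated (0 h) or had been given imidazole propionate (ImP), a histidine metabolite of gut bacteria, at 10 µg/mL for 1 h or 2 h. The question put to these libraries was which transcriptional pathways ImP raises in each cell type. The labels give no genotype, strain, age or animal, no separate culture for each library and no vehicle at 1 h or 2 h, so ImP and time in culture cannot be told apart and the p-values measure only the spread between these libraries, which may be technical. In these bulk samples fewer cells of a type and less RNA per cell cannot be told apart.

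The mTOR kinase works in a pair of complexes. In the first, with raptor (Rptor), it drives translation through the S6 kinases and the 4E-BPs and restrains autophagy through Ulk1, and in the second, with rictor (Rictor), it phosphorylates AKT. Growth factors act through PI3K and AKT, which relieve the block that the TSC complex places on the small GTPase Rheb, while amino acids act through the Rag GTPases, which Ragulator holds on the lysosome. These controls work mainly on protein phosphorylation and location, so transcript levels show how much of each part a cell could make and do not read the activity of the pathway.

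No member passed the test with ImP in any cell type at either time, whereas most members differed between the cell types, by up to 5.26 on the log2 scale between macrophages and fibroblasts. Levels are given in counts per 1000000 (CPM) on a scale common to all 27 libraries, and per kilobase of the principal transcript (RPKM) where genes are set beside each other. Fold changes are on the log2 scale with their standard error (SE), and a member passed, or was called, at a Benjamini-Hochberg adjusted p under 0.05 over all genes tested.

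Depth was 28.8 to 35.6 M counts per library in BMDM, 30.6 to 36.5 M in MEF and 19 to 61 M in MAEC, and the biological coefficient of variation was 0.126, 0.126 and 0.326. All 12 macrophage markers reached 10 CPM in BMDM, and 6 of 11 fibroblast markers did in MEF. In MAEC only 1 of 13 endothelial markers did, 7 lay under 1 CPM, their sum was 91.8 to 138 CPM per library and Cldn5 was at 0, while 10 of 11 fibroblast and 6 of 8 smooth muscle markers reached 10 CPM, so the MAEC label is used here as a name. Per the labels, MAEC RNA was isolated and made into libraries with other kits than those of BMDM and MEF, a low-input library kit against a directional one, so kit and cell type cannot be told apart for MAEC. Replicate 3 of BMDM stood apart from its group both at 1 h and at 2 h, and the BMDM counts of called genes with ImP are given with and without these libraries.

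In unstimulated macrophages genes of the lysosomal amino acid branch stood at the top, and genes of this branch also ranked high in MEF and MAEC. Per length the highest members in BMDM were Fnip2 (187 ± 11.4 RPKM, SD, n = 3), a partner of folliculin, Rragc (169 ± 2.7), the C member of the Rag GTPases, Lamtor1 (150 ± 9.98), which anchors Ragulator to the lysosome, and Sesn1 (128 ± 6.84), a leucine-responsive inhibitor. In MEF the order was led by the kinase gene Akt1 (144 ± 13.3 RPKM), then by the translational repressor Eif4ebp1 (66.3 ± 0.902) and by Rheb (50.7 ± 2.37). Rraga (47.6 RPKM), Lamtor1 (45.2), Lamtor2 (44.9) and Rragc (39) came next in MEF. In MAEC Lamtor2 (204 ± 53), Rheb (190 ± 14) and Eif4ebp1 (164 ± 30.4) led, and neighbours in that order did not differ beyond their SD. Lamtor1 (120 RPKM), Lamtor5 (118), Lamtor3 (94.6) and Rraga (84.2) came next in MAEC. With all annotated exons as the length, Rragc (131 RPKM) came before Fnip2 (84.6) in BMDM and Eif4ebp1 (149) led MAEC. The median member stood at 14.5 RPKM in BMDM, 10.1 in MEF and 5.75 in MAEC, and 41, 38 and 33 of 46 members reached 10 CPM. The plot of levels at 0 h shows every member by role.

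**Figure D1:**
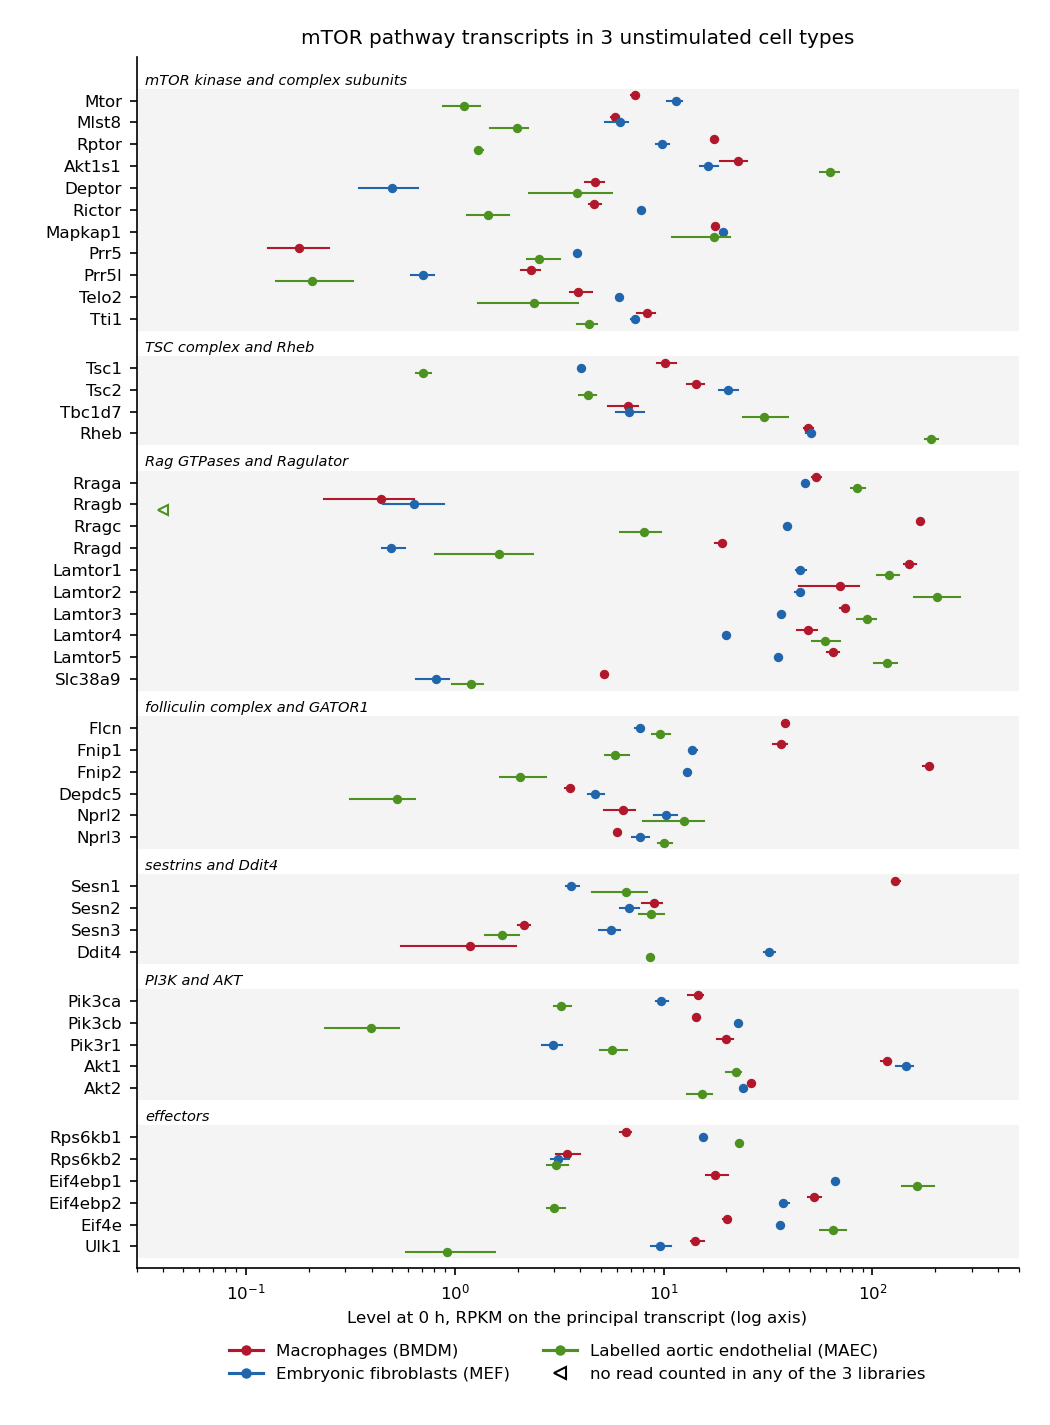
Level of each of the 46 members at 0 h in RPKM on the principal transcript (log axis), by role, with the mean of 3 libraries as a point and their range as a line, coloured by cell type. Rragc, Rragd, Flcn, Fnip2, Sesn1 and Slc38a9 lie farther right in macrophages than in the other cell types, and Rragb is drawn at the left edge for MAEC because none of its reads was counted there.

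Between unstimulated macrophages and fibroblasts, 22 members were higher in macrophages, 14 were lower and 10 did not pass (edgeR, 27 libraries in 1 model). Over all 17038 genes tested 68.3% were called, 32.7% higher and 35.5% lower, so the members' 36 calls are a share near the background and the direction of single members is what these values describe. The median member differed by 0.18 against -0.07 over all genes. With libraries scaled by their totals alone the split was 16 higher and 21 lower and the median of all genes moved by -0.41. Under that scaling Sesn2 turned to the other sign and Akt1s1, Eif4ebp2, Lamtor2, Pik3ca and Ulk1 no longer passed. Differences under about that size are therefore read only relative to the scaling. Where libraries of different cell types are said below not to overlap, the share of all genes that separate in this way is not given here. Such statements describe single members and add nothing to the tests.

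The Rag and Ragulator genes were the role with the most uniform direction: 8 of 10 were higher in BMDM than in MEF and 0 were lower. This was not particular to macrophages. In MAEC 8 of 10 were higher than in MEF and 2 lower, and against BMDM 4 were higher and 5 lower. Rragd, which pairs with RagA or RagB on the lysosome, was at 88.2, 98.4 and 99.1 CPM in BMDM and at 2.89, 2.31 and 2.25 CPM in MEF. It differed by 5.26 (SE 0.28, edgeR adjusted p = 5.34e-15). Rragc, its near relative, was at 430, 442 and 443 CPM in BMDM against 98.9, 106 and 98.1 CPM in MEF. In neither gene did the groups overlap. Rragc differed by 2.12 (SE 0.13, edgeR adjusted p = 5.65e-14) and Slc38a9, which senses arginine in the lysosome, by 2.68 (SE 0.18, edgeR adjusted p = 6.35e-13). All 5 Ragulator subunits were higher in BMDM, from Lamtor2 (0.64, SE 0.18) through Lamtor5 (0.86), Lamtor3 (1.02) and Lamtor4 (1.30) to Lamtor1 (1.73, SE 0.1, edgeR adjusted p = 2.96e-14). Lamtor2 was the least firm of them. Its libraries spanned 29.6 to 57.3 CPM in BMDM and 28.6 to 31.1 CPM in MEF, which overlap, and it did not pass with scaling by totals alone. Rraga (0.17, SE 0.08) and Rragb (-0.52, SE 0.75), the partners of RagC and RagD, did not pass. On GRCm38, Rragd lies on chromosome 4 at 32983037 to 33022180 on the plus strand.

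Because most Rag and Ragulator genes were higher in BMDM than in MEF, the promoters of the members were read for CACGTG. This is the E-box that the lysosomal regulators TFEB, TFE3 and MITF bind, along with MYC, USF and other factors. The word is its own reverse complement, so 1 search covers both strands. Promoter windows of 300 bases, 250 before and 50 after the RefSeq start on GRCm38.p6, were held for 42 of the 46 members. CACGTG occurred in 9 of them (21.4%), against 8.09% of 27025 genes with a window. Those 27025 genes were not limited to genes detected in these libraries, as nearly all members were. The shares therefore come from unlike sets, and their difference was not tested. It occurred in 4 of 20 members that were higher in BMDM (20%), in 2 of 13 that were lower (15.4%) and in 3 of 9 that did not pass (33.3%). The stretches of the 4 higher members are shown, 5′ to 3′ along the gene, with CACGTG in capitals.
Rragc: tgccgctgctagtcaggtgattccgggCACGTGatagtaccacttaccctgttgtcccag
Lamtor1: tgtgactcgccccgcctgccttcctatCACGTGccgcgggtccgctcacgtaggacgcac
Lamtor4: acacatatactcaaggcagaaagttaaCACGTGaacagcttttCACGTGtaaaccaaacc
Fnip1: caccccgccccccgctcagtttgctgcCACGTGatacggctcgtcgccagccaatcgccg
They lie on the plus strand of GRCm38.p6 at chr4:123917294-123917353, chr7:101905742-101905801, chr5:138255335-138255394 and chr11:54438077-54438136. The first base of the word lies 112 bases before the RefSeq start in Rragc, 68 in Lamtor1, 120 in Lamtor4 and 75 in Fnip1. In Lamtor4 the word occurs at 2 places. A match is a description of these letters and binding was not measured.

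The folliculin complex, which activates RagC and RagD as their GTPase-activating protein, was higher in macrophages in all its parts. Fnip2 was at 658, 734 and 731 CPM in BMDM, at 49, 47.1 and 50.9 CPM in MEF and at 6.2, 10.4 and 6.76 CPM in MAEC, with no overlap between any pair of cell types. It was higher in BMDM than in MEF by 3.85 (SE 0.17, edgeR adjusted p = 1.33e-16). Flcn itself was at 134, 131 and 129 CPM against 27.4, 25 and 27.5 CPM, a difference of 2.30 (SE 0.11, edgeR adjusted p = 7.82e-16), and Fnip1 differed by 1.42 (SE 0.15). The GATOR1 genes, whose product switches off RagA and RagB, did not share that direction. Nprl2 (-0.68, SE 0.2) and Nprl3 (-0.37, SE 0.16, edgeR adjusted p = 0.0496) were lower in BMDM, and Depdc5 (-0.40, SE 0.22) did not pass. Nprl3 no longer passed with RLE scaling, with the length trend removed, by DESeq2 or by limma-voom.

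The stress-responsive inhibitors did not share a direction. Sesn1, a p53 and FOXO target that restrains the complex with raptor, was at 322, 354 and 325 CPM in BMDM and at 8.91, 9.05 and 10.3 CPM in MEF, a difference of 5.15 (SE 0.2, edgeR adjusted p = 4.88e-18). Ddit4, a stress-induced activator of the TSC complex also known as REDD1, was at 3.46, 0.972 and 1.76 CPM in BMDM and at 53, 59.8 and 55.9 CPM in MEF. It was lower in BMDM by a log2 value of -4.77 (SE 0.29, edgeR adjusted p = 6.35e-14). Both sets of libraries were clear of each other for either gene. Sesn3 was lower in BMDM (-1.39, SE 0.14) and Sesn2 was at 27.5, 34 and 32.3 CPM in BMDM against 21.6, 23 and 26.4 CPM in MEF (0.40, SE 0.14, edgeR adjusted p = 0.0148), the sign of which depended on the scaling as stated above.

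Among the complex subunits, 4 of 11 were higher in BMDM and 4 were lower. Mtor was at 61.6, 60 and 65.6 CPM in BMDM and at 89.1, 99.9 and 106 CPM in MEF (-0.65, SE 0.12, edgeR adjusted p = 2.22e-05). Rptor, the scaffold of the first complex, was at 113, 112 and 120 CPM against 64.2, 60.5 and 70 CPM (0.83, SE 0.17). Rictor, the scaffold of the second, went the other way, at 40.8, 46.9 and 41.5 CPM against 72.1, 71.1 and 74.5 CPM (-0.75, SE 0.17, edgeR adjusted p = 0.000366). In each of the 3 genes the groups did not overlap, with Rptor the higher scaffold per length in BMDM (17.5 RPKM against 4.62 for Rictor) and closer to it in MEF (9.85 against 7.79). Deptor, an inhibitor found in both complexes, was higher in BMDM by 3.23 (SE 0.27, edgeR adjusted p = 3.81e-11). Prr5, which binds rictor, was lower (-4.41, SE 0.37), while its relative Prr5l was higher (1.73, SE 0.45).

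Upstream, Tsc1 was higher in BMDM (1.35, SE 0.11) and its partner Tsc2 was at 78.4, 86.1 and 94.5 CPM against 111, 118 and 137 CPM in MEF (-0.50, SE 0.18, edgeR adjusted p = 0.016). Rheb was at 92.8, 84.2 and 84.7 CPM in BMDM and at 91.1, 94.3 and 85.9 CPM in MEF, overlapping ranges (-0.05, SE 0.086). The PI3K regulatory subunit Pik3r1 was higher in BMDM by 2.75 (SE 0.14, edgeR adjusted p = 2.34e-15), and the catalytic subunits divided, with Pik3ca higher (0.59, SE 0.092) and Pik3cb lower (-0.66, SE 0.26). Pik3cb did not pass by DESeq2, nor Tsc2 with the length trend removed. Among the effectors 2 of 6 were higher and 3 lower. Eif4ebp1 was at 40.8, 32.7 and 31.8 CPM in BMDM against 134, 132 and 131 CPM in MEF (-1.91, SE 0.12, edgeR adjusted p = 3.32e-13). The S6 kinase gene Rps6kb1 was at 38.7, 34 and 37 CPM against 86.1, 85.1 and 85.7 CPM (-1.23, SE 0.098), and the cap-binding factor Eif4e was lower too (-0.84, SE 0.1). Neither Eif4ebp1 nor Rps6kb1 overlapped between the cell types.

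In MAEC, 20 members were higher and 22 lower than in MEF, and 4 did not pass, with 72.1% of all genes called (37.2% higher, 34.9% lower). The median member was lower, at -0.37 against 0.05 over all genes, and with libraries scaled by totals alone the counts were 16 and 23. Higher were Deptor (2.95), the Ragulator subunits Lamtor2 (2.18), Lamtor5 (1.74) and Lamtor4 (1.57), Tbc1d7, a subunit of the TSC complex (2.16), Akt1s1, an inhibitor in the first complex (1.94), Rheb (1.90) and Rragd (1.73). Lower were the catalytic subunit gene Pik3cb (-5.83), Eif4ebp2 (-3.64), Ulk1 (-3.42), Mtor (-3.36), Depdc5 (-3.14), Rptor (-2.93) and Akt1 (-2.70). Mtor was at 11.3, 9.74 and 7.52 CPM, Rptor at 8.23, 9.05 and 8.24 CPM and Rictor at 12.5, 10.7 and 17.1 CPM in MAEC. Each lay below all 3 MEF and all 3 BMDM libraries, whereas Rheb, at 366, 318 and 330 CPM, lay above them all. Rragb had 0 counts in the 3 MAEC libraries at 0 h. Against a floor of 3 counts over the group (0.0297 CPM), these libraries lay at least 48.5-fold under MEF (1.44 CPM) in Rragb. They lay at least 33.8-fold under BMDM (1 CPM), both for counting error only. MAEC libraries at 1 h held 4, 10 and 20 counts (mean 0.425 CPM). The bounds therefore describe the 3 libraries at 0 h and not the spread of Rragb in MAEC.

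Against BMDM, MAEC had 14 members higher, 27 lower and 5 not passing, with 76.7% of all genes called (40.6% higher, 36.1% lower). The median was -0.86 against 0.13 over all genes. Fnip2 (-6.53), Pik3cb (-5.17), Rragc (-4.39), Sesn1 (-4.28), Eif4ebp2 (-4.12), Ulk1 (-3.99) and Tsc1 (-3.85) were the lower ones with the largest fold after Rragb, and Prr5 (3.82), Eif4ebp1 (3.22), Ddit4 (2.87), Tbc1d7 (2.16), Rheb (1.96), Rps6kb1 (1.80), Eif4e (1.69) and Lamtor2 (1.55) the higher ones. All 5 PI3K and AKT genes were lower in MAEC, of which Akt2 did not pass once the trend on length was removed. Eif4ebp1 was at 313, 276 and 394 CPM in MAEC, above every BMDM and MEF library at 0 h.

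Transcript length moved with the MAEC differences. Of 13 members with a principal transcript of up to 2000 bp, 10 were higher in MAEC than in MEF and 1, Ddit4, was lower. Of 17 members over 5000 bp, 12 were lower and 5 were higher, namely Deptor, Pik3r1, Rragd, Rps6kb1 and Slc38a9. In 4 classes of total exon length (up to 2000, 4000 and 8000 bp and above) all genes had medians of 1.03, 0.46, -0.35 and -0.87 from the shortest to the longest, and the members 1.20, 0.62, -0.40 and -1.97. Whether the slopes differ was not tested. Spearman's rho between total exon length and fold was -0.372 across the members (n = 46 genes, which share libraries and are not replicates) and -0.258 across 16719 genes, and on the principal transcript it was -0.486 across the members. Between BMDM and MEF, which share a kit, rho on total exon length was 0.0191 for the members and -0.0327 for all genes. With each library's trend on length removed, 18 members were higher and 23 lower in MAEC than in MEF, Mtor was at -2.49, Rptor at -1.88, Lamtor2 at 1.18, Lamtor5 at 0.80, Lamtor4 at 0.58 and Rheb at 2.61. Rraga turned to the other sign and Akt2 and Sesn2 no longer passed. Against BMDM, Rraga and Sesn3 turned and Akt2, Lamtor5, Nprl2 and Telo2 no longer passed. The part of the kit in these differences was not tested.

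**Figure D2:**
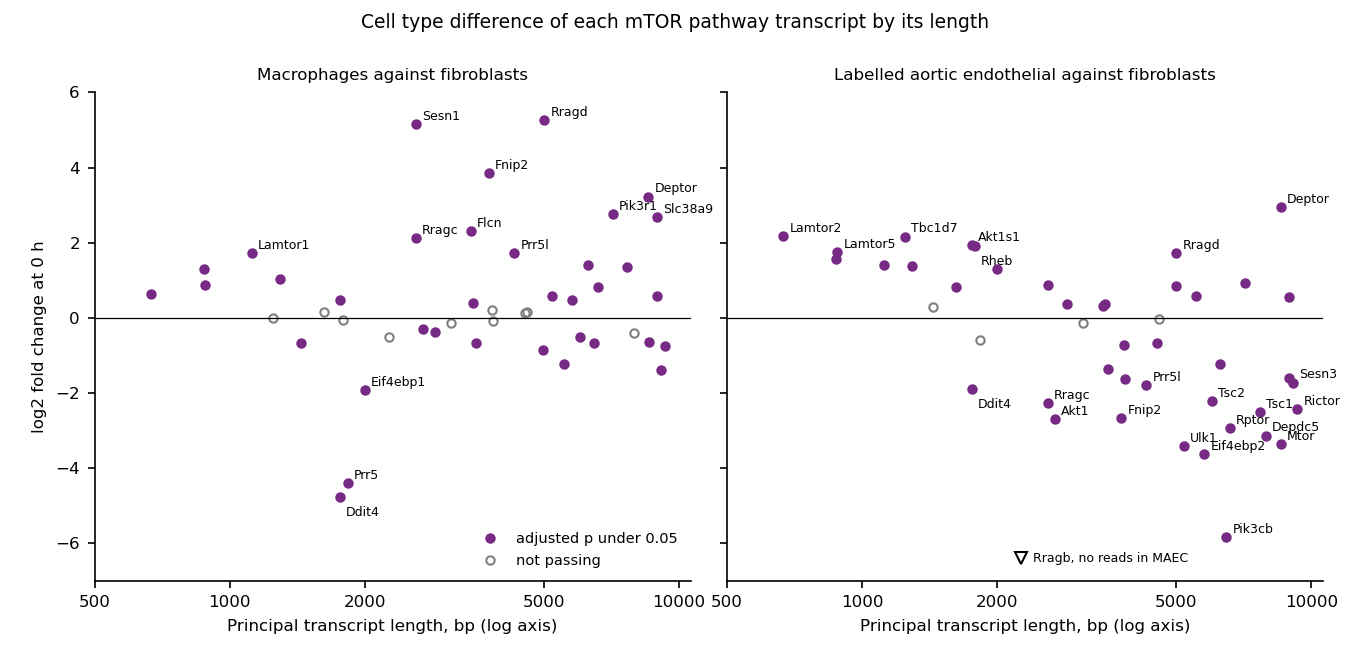
Log2 fold change at 0 h of each member against the length of its principal transcript (log axis), for macrophages against fibroblasts and for MAEC against fibroblasts, with filled points for members that passed. In the right panel short members such as Lamtor2 and Tbc1d7 lie above 0 and long members such as Mtor, Rptor and Eif4ebp2 below it, and the left panel shows no such slope.

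Related members took different shares of their families in the 3 cell types, computed per length within each library. Division by length does not remove a library's trend on length, and kit and cell type cannot be told apart for MAEC. Both limits hold for the MAEC shares. Of the FNIP pair, Fnip2 made up 83.7% ± 0.328 in BMDM, 48.7% ± 1.51 in MEF and 26% ± 7 in MAEC (SD, n = 3 each). Of the sestrins, Sesn1 made up 92% ± 0.53 in BMDM, while in MEF Sesn2 held 42.5% ± 1.86, Sesn3 34.9% ± 2.28 and Sesn1 22.6% ± 0.53. The 4E-BPs are the repressors that mTOR releases from Eif4e. Of Eif4ebp1 and Eif4ebp2 alone, Eif4ebp1 made up 25.2% ± 3.61 in BMDM, 64% ± 1.55 in MEF and 98.2% ± 0.192 in MAEC. This leaves out Eif4ebp3, which is not a member and was at 6.6, 3.91 and 0.697 CPM in BMDM, MEF and MAEC at 0 h. Over the 9 libraries of each cell type, ImP included, the shares of Fnip2 and of Eif4ebp1 did not overlap between any cell types.

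Of the rictor-binding pair Prr5l led in 1 cell type only, with Prr5l at 92.9% ± 1.88 in BMDM and Prr5 at 84.5% ± 1.5 in MEF and 92.1% ± 4.41 in MAEC. Of Pik3ca and Pik3cb alone, Pik3cb made up 69.9% ± 1.68 in MEF, 49.5% ± 2.15 in BMDM and 10.8% ± 3.18 in MAEC. This leaves out the catalytic gene Pik3cd, which is not a member. Pik3cd was at 151 CPM in BMDM at 0 h, against 130 for Pik3ca and 92.4 for Pik3cb. It was at 19.3 CPM in MEF and 3.27 CPM in MAEC. By contrast Rraga made up at least 98.2% of RagA and RagB transcripts in every library, and Rragc at least 88.8% of RagC and RagD in BMDM and 97.8% in MEF. In MAEC Rragc ranged from 66.2% to 91% over 9 libraries. With all exons as the length, Fnip2 was at 72.5%, 32.8% and 15.4% in BMDM, MEF and MAEC, and the order of the cell types was the same. Akt1 exceeded Akt2 and Rps6kb1 exceeded Rps6kb2 in all 3 cell types, at 81.6% and 65.7% in BMDM.

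**Figure D3:**
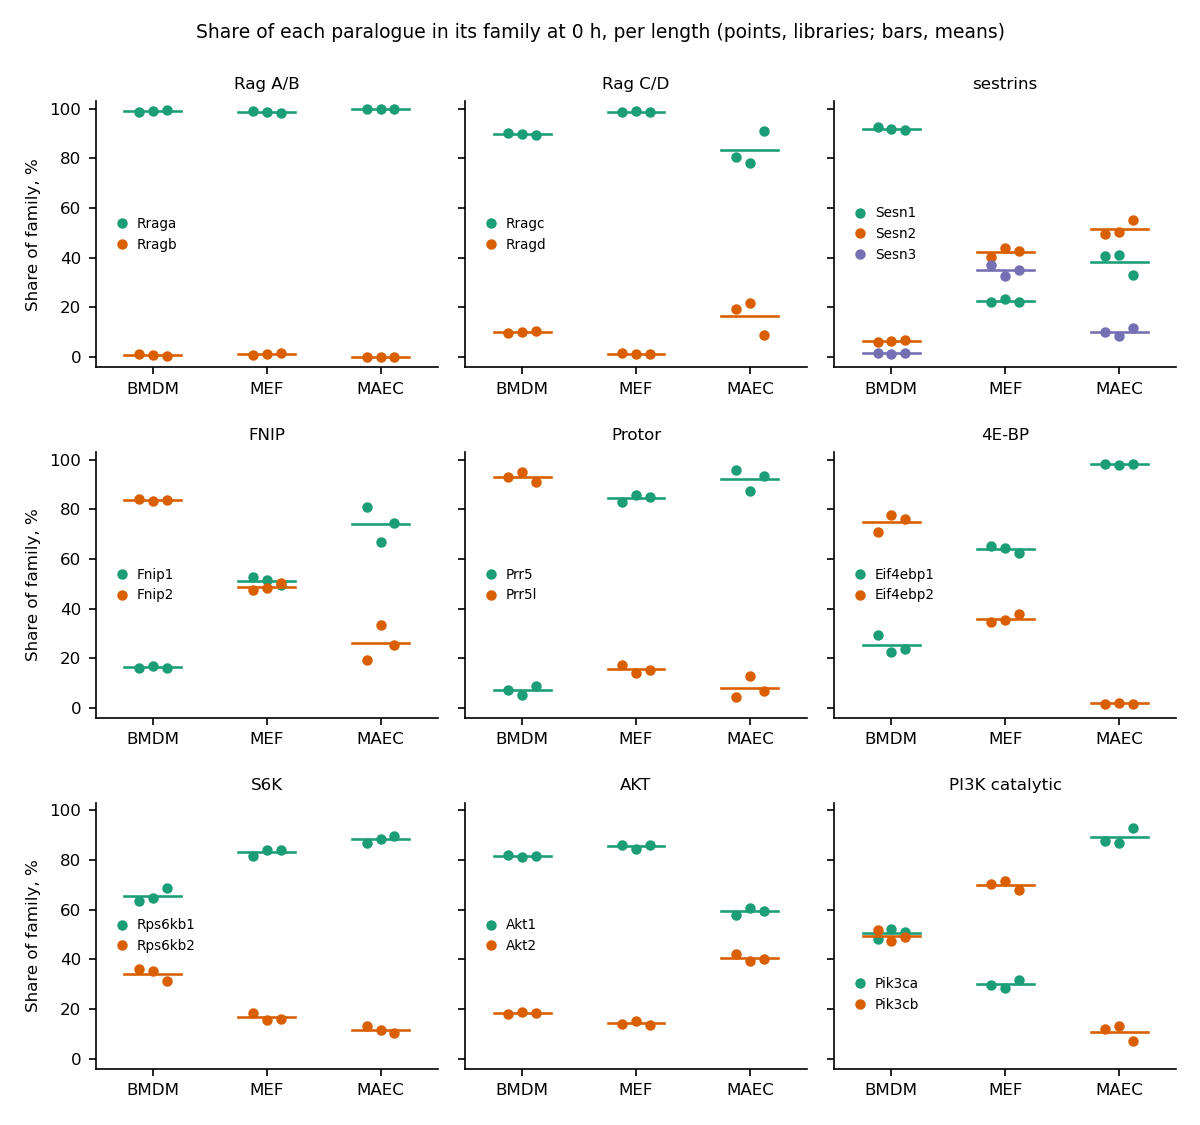
Share of each gene among the members of its family at 0 h in percent, per kilobase of principal transcript, with a point for each of 3 libraries and a bar for their mean, in BMDM, MEF and MAEC. Relatives that are not members, such as Pik3cd, are left out. The leading gene differs between cell types for the sestrins, FNIP, Protor, 4E-BP and PI3K families, with FNIP near even in MEF and PI3K near even in BMDM, and stays the same for Rag A/B, Rag C/D, S6K and AKT.

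With ImP none of these genes passed. In macrophages 0 of 46 members were called at 1 h, at 2 h or between 2 h and 1 h, with 0.0226%, 0.0302% and 0% of all genes called. In fibroblasts it was 0 of 46 in each comparison, with 0%, 0% and 0% of all genes, and in MAEC 0 of 45, Rragb being too low to test, again with 0%, 0% and 0%. DESeq2 and limma-voom also called 0 members in these 9 comparisons. At an unadjusted p under 0.05 edgeR had 3, 2 and 0 members in BMDM, 5, 0 and 6 in MEF and 4, 4 and 1 in MAEC, against 5.23%, 6.15% and 1.65% of all genes in BMDM, 5.87%, 2.43% and 12.1% in MEF and 4.96%, 9.21% and 1.98% in MAEC. The median member moved by -0.00 and 0.02 at 1 h and 2 h in BMDM, by -0.03 and 0.00 in MEF and by 0.03 and 0.11 in MAEC. Members named below whose groups do not overlap were named for a small p, so this adds nothing to the tests. The share of all genes that separate in this way is not given here.

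These values also bound the change. The 95% interval lay within 1.5-fold of no change for 42 of 46 members at both 1 h and 2 h in BMDM and for 43 and 41 in MEF. In MAEC, where replicates spread more, 18 of 45 members were so bounded at either time, and 37 of 45 lay within 2-fold. For members outside those bounds the data do not exclude a change of that size. Without replicate 3 of BMDM at both ImP times the counts within 1.5-fold were 42 and 41.

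**Figure D4:**
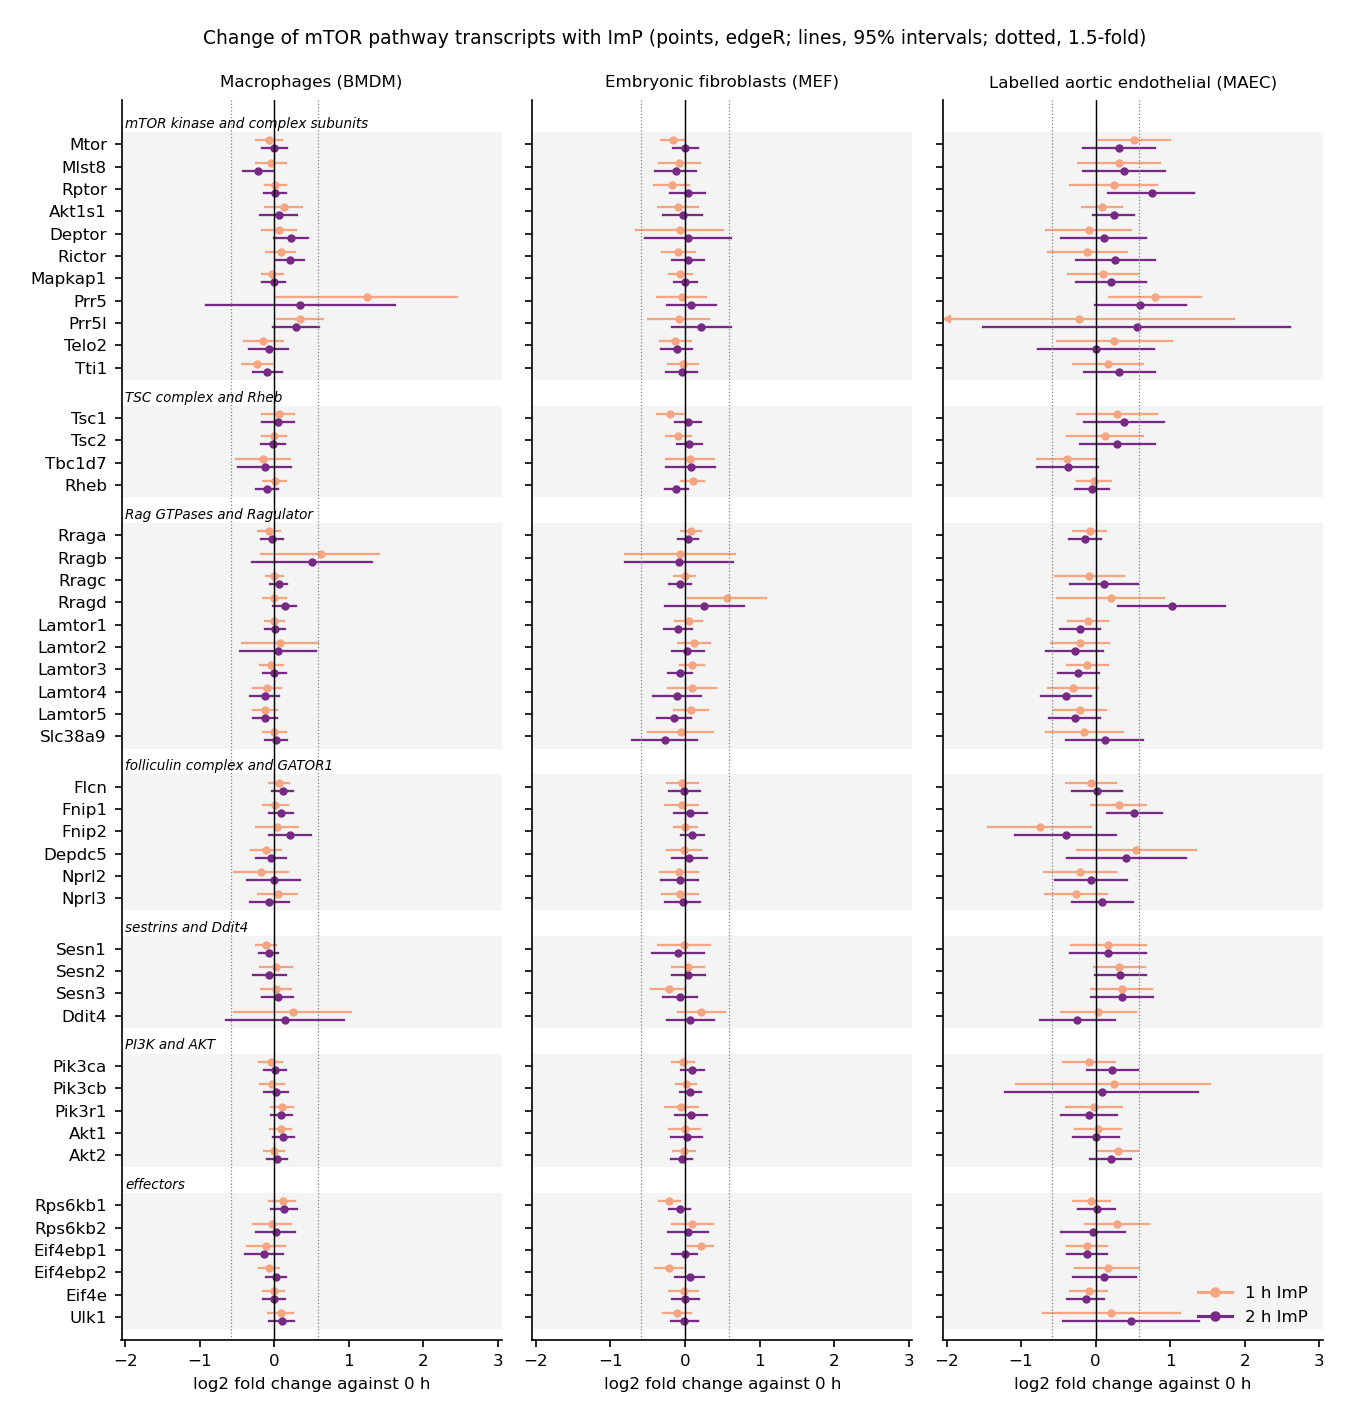
Log2 fold change of each member after 1 h and 2 h with ImP against 0 h in the 3 cell types, with edgeR 95% intervals as lines and dotted lines at 1.5-fold. Nearly all intervals in BMDM and MEF lie between the dotted lines and those in MAEC are wider, Rragb is not drawn for MAEC, and an arrow marks an interval that runs past the axis.

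In macrophages the estimates for the kinase and its scaffolds were small. Mtor went from 61.6, 60 and 65.6 CPM unstimulated to 58.5, 58.7 and 61 CPM after 1 h (-0.07, 95% interval -0.24 to 0.10) and to 63.4, 67.6 and 55.4 CPM at 2 h. Rptor was at 115, 111 and 122 CPM at 1 h, then 116, 122 and 108 CPM after 2 h. Both overlapped with 0 h at every time. The level of Rictor was 42.9, 42.6 and 51.8 CPM at 1 h, then 51, 50.9 and 47 CPM after 2 h (0.21, SE 0.091, edgeR adjusted p = 0.776). Its 3 libraries at 2 h lay above all 3 at 0 h, and it did not pass.

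Rictor had the smallest p of all members at 2 h, and the other small p-values in BMDM belonged to other genes. At 1 h Tti1, which helps to fold the kinase, was at -0.23 (SE 0.092, edgeR adjusted p = 0.922), Prr5l at 0.34 (SE 0.145) and the scarcely detected Prr5 at 1.24 (SE 0.566), followed by Rragb at 0.62, Sesn1 at -0.11 and Lamtor5 at -0.13. At 2 h Mlst8, a subunit of both complexes, was at -0.22 (SE 0.096, edgeR adjusted p = 0.776), Deptor at 0.23 (SE 0.106), Prr5l at 0.29, Lamtor5 at -0.12 and Lamtor4 at -0.13. Between 2 h and 1 h Rragd was at 0.14 (SE 0.07), Deptor at 0.16, Tti1 at 0.14, Rheb at -0.11, Mlst8 at -0.18 and Prr5 at -0.89 (edgeR adjusted p = 1 for each). None of these passed.

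The inhibitors that stress and nutrients are known to move did not pass in BMDM. Sesn2 was at 33.5, 33.6 and 28.3 CPM at 1 h, then 28.5, 32.4 and 28.3 CPM after 2 h, within its range at 0 h. Ddit4 was at 2.69, 2.65 and 2.01 CPM at 1 h, then 2.14, 2.51 and 2.16 CPM after 2 h, inside its range of 0.972 to 3.46 CPM at 0 h. Tsc2 (-0.01 at 1 h, 95% interval -0.16 to 0.15), Rheb (0.00, -0.15 to 0.15), Rps6kb1 (0.11, -0.07 to 0.28) and Eif4ebp1 (-0.11, -0.37 to 0.14) did not pass either.

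Leaving out replicate 3 at both ImP times added 1 macrophage member to those called and moved the estimates of others. Nfkbia, an NF-kB target used here to show the libraries, was at 261, 251 and 47.3 CPM at 1 h, then 52.1, 42.6 and 270 CPM after 2 h, so that replicate 3 at each time lay near the other group's first libraries. Fnip2, named after its values were seen, was at 704, 659 and 814 CPM at 1 h, then 864, 923 and 666 CPM after 2 h. As labelled it was at 0.21 at 2 h against 0 h and 0.17 at 2 h against 1 h (edgeR adjusted p = 1). With replicate 3 left out at both ImP times it was higher at 2 h than at 1 h by 0.40 (SE 0.075, edgeR adjusted p = 0.0232), the only member called of 46, where 0.661% of all genes were called. In the same fit it was at 0.34 at 2 h against 0 h (SE 0.068, edgeR adjusted p = 0.129), and edgeR called 0 members at 1 h or 2 h against 0 h, where 0.928% and 0.119% of all genes were called. At an unadjusted p under 0.05 that fit had 2, 6 and 5 members at 1 h, at 2 h and between them, against 7.4%, 7.75% and 5.55% of all genes. Between 2 h and 1 h Rictor was at 0.26 in place of 0.12, Fnip1 at 0.19 in place of 0.08, Rragd at 0.20 in place of 0.14 and Pik3cb at 0.16 in place of 0.05. Deptor at 1 h against 0 h was at 0.18 in place of 0.06. None of these 5 passed. The libraries were left out on account of their values, so this p is not independent of that choice. The library codes follow the order 0 h, 1 h, 2 h in the other triplets, and in the last macrophage triplet the 1 h code comes after the 2 h code. Whether labels were exchanged was not tested.

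**Figure D5:**
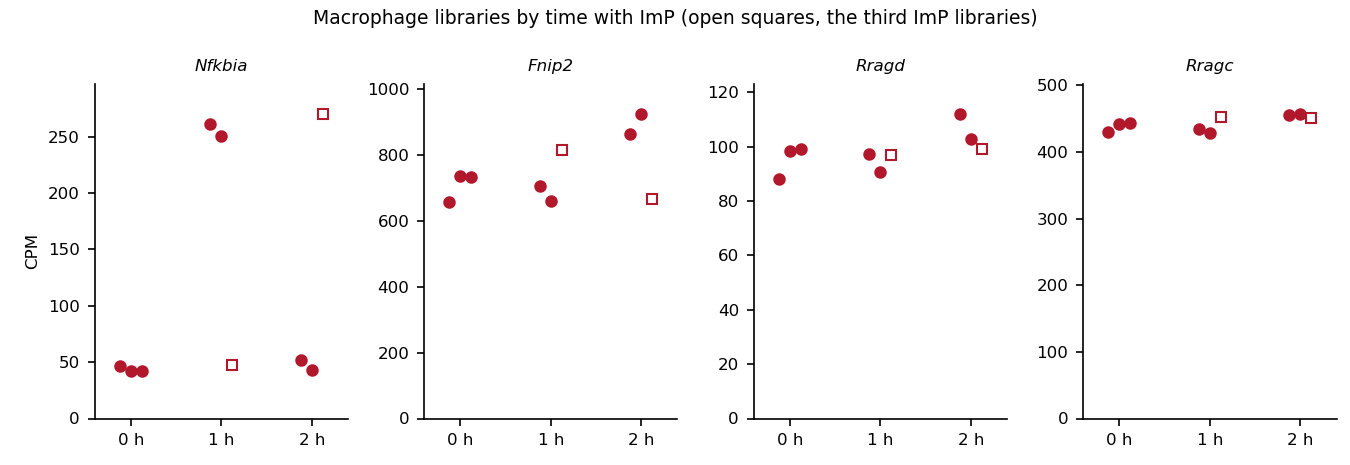
CPM of Nfkbia and of the members Fnip2, Rragd and Rragc in each macrophage library at 0 h, 1 h and 2 h with ImP, replicate 3 with ImP as open squares. The open squares of Nfkbia sit at 47.3 and 270 CPM, apart from their groups, those of Fnip2 at 814 and 666 CPM, and those of Rragd and Rragc among the other libraries or beside them.

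In fibroblasts the effector genes Rps6kb1 and Eif4ebp1 had the smallest p-values at 1 h and neither passed. Rps6kb1 was at 86.1, 85.1 and 85.7 CPM unstimulated, then 73.8, 77 and 73.3 CPM after 1 h, groups that did not overlap (-0.21, SE 0.066, edgeR adjusted p = 0.846). It stood at 80.8, 82.2 and 86.6 CPM at 2 h, again reaching the range at 0 h. Eif4ebp1 was at 165, 155 and 142 CPM at 1 h, above its 134, 132 and 131 CPM at 0 h (0.21, SE 0.077), and Eif4ebp2 was at -0.21 (SE 0.087). Rragd was at 4.43, 4.19 and 2.52 CPM (0.57, SE 0.245), Tsc1 at -0.20 (SE 0.079) and Ddit4 at 65, 76 and 57.3 CPM against 53, 59.8 and 55.9 CPM (0.22, SE 0.144). None passed, and all of these had an edgeR adjusted p of at least 0.846. Replicates 2 and 3 of MEF at 1 h also had the strongest negative trends on gene length of the MEF libraries (rho -0.303 and -0.323 across genes), whose part was not tested.

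At 2 h no MEF member reached an unadjusted p under 0.05. Rheb was at 90.9, 86.1 and 78.1 CPM (-0.12, SE 0.072), Pik3ca at 0.10, Fnip2 at 0.10, Prr5l at 0.22, Lamtor5 at -0.15 and Slc38a9 at -0.27 (edgeR adjusted p = 1 for each). Between 2 h and 1 h 6 members had an unadjusted p under 0.05, where 12.1% of all genes did. These were Eif4ebp2 (0.27, SE 0.087, edgeR adjusted p = 0.243), Tsc1 (0.24), Mtor (0.16), Rheb (-0.22, SE 0.072), Eif4ebp1 (-0.21) and Lamtor3 (-0.16). Mtor was at 91.5, 82.1 and 92.5 CPM at 1 h, then 101, 98.3 and 102 CPM after 2 h, without overlap, while its libraries at 0 h overlapped with both.

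In MAEC the estimates were larger and the errors wider. At 1 h Mtor was at 13.2, 14.2 and 13.2 CPM, above its 11.3, 9.74 and 7.52 CPM at 0 h (0.52, SE 0.223, edgeR adjusted p = 0.826). Prr5 was at 8.27, 9.11 and 6.53 CPM against 5.81, 4.06 and 4.04 CPM (0.80, SE 0.284), and Fnip2 at 5.35, 4.39 and 4.08 CPM against 6.2, 10.4 and 6.76 CPM (-0.75, SE 0.319). None of the 3 overlapped with 0 h, which for members named by small p adds nothing to the test, and none passed. Akt2 was at 0.30, Tbc1d7 at -0.38 and Lamtor4 at -0.30.

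At 2 h Rragd was at 18.2, 13.9 and 17.5 CPM in MAEC against 11.8, 8.65 and 4.04 CPM at 0 h, the largest estimate of that comparison (1.02, SE 0.332, edgeR adjusted p = 0.539). Fnip1 was at 64.1, 49.7 and 43.2 CPM against 42.9, 34.4 and 32.8 CPM (0.52, SE 0.173) and Rptor at 13.7, 16.5 and 12.5 CPM against 8.23, 9.05 and 8.24 CPM (0.75, SE 0.267). These groups did not overlap, Lamtor4 lay at 38.9, 38.7 and 40.1 CPM below its 45, 50.2 and 61.1 CPM at 0 h (-0.40, SE 0.155), and none passed. Tbc1d7 was at -0.37, and Lamtor3 at -0.23. The 3 MAEC libraries at 2 h had higher trends on gene length (rho 0.25, 0.0553 and 0.0222) than those at 0 h (-0.086, -0.0142 and -0.238), and the members with positive estimates named here have the longer transcripts. With the trend removed Rragd was at 0.97, Fnip1 at 0.43, Rptor at 0.63, Lamtor4 at -0.19, Tbc1d7 at -0.40 and Lamtor3 at -0.26, and none passed. Between 2 h and 1 h Rragd was at 0.82 (SE 0.331), Pik3ca at 0.31, Rptor at 0.51, Rps6kb2 at -0.33, Ddit4 at -0.28 and Mtor at -0.21 (edgeR adjusted p = 1 for each). Rragb had 4, 10 and 20 counts at 1 h and 12, 0 and 0 at 2 h.

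The change with ImP was also compared between cell types as an interaction term over all 27 libraries, and edgeR called 0 of 46 members in each of the 4 differences. Macrophages minus fibroblasts had 2 members at an unadjusted p under 0.05 at 1 h and 0 at 2 h, against 3.62% and 2.18% of all genes, with 0.00587% and 0.0117% called. Without replicate 3 of BMDM at both ImP times 0 were called and 1 and 0 had an unadjusted p under 0.05. The smallest p belonged to Prr5 (1.28, SE 0.485) and Rps6kb1 (0.31, SE 0.136) at 1 h, and to Rps6kb1 (0.17) and Slc38a9 (0.26) at 2 h (edgeR adjusted p = 1 for each). MAEC minus fibroblasts had 7 members at 1 h and 3 at 2 h, against 11% and 7.93% of all genes, with 0% and 0% called. Besides Rragb, whose MAEC counts at 0 h were all 0 and whose fitted value is no measure of size (edgeR adjusted p = 0.251 at 1 h and 0.559 at 2 h), the smallest p belonged to Mtor at 1 h and to Rptor at 2 h. Mtor was at 0.64 at 1 h (SE 0.171, edgeR adjusted p = 0.274) and Rptor at 0.68 at 2 h (SE 0.243, edgeR adjusted p = 0.518). DESeq2 called Mtor at 1 h (0.65, adjusted p = 0.0275) and Rragb (adjusted p = 0.0193). Without the first MAEC library at 0 h edgeR called Mtor as well (0.81, adjusted p = 0.0254), and without the first MAEC library at 1 h Rragb (adjusted p = 0.0496).

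Around the members, 5 further lists were followed: upstream kinases and phosphatases, other nutrient sensing genes, further downstream genes, targets of the amino acid response factor ATF4, and lysosome and autophagy genes. With ImP and all libraries as labelled 0 of 115 were called in BMDM, 0 of 117 in MEF and 0 of 115 in MAEC, at each of the 3 comparisons. At an unadjusted p under 0.05 edgeR had 9, 7 and 2 of them in BMDM, 6, 2 and 13 in MEF and 7, 10 and 3 in MAEC, for 1 h and 2 h against 0 h and 2 h against 1 h. Over all genes these shares were 5.23%, 6.15% and 1.65%, then 5.87%, 2.43% and 12.1%, then 4.96%, 9.21% and 1.98%. With replicate 3 of BMDM left out at both ImP times, 2 of 115 were called at 1 h, 0 at 2 h and 1 between them (0.928%, 0.119% and 0.661% of all genes), with 11, 9 and 8 at an unadjusted p under 0.05. The called genes, named after their values were seen, were Sgk1, a kinase that the complex with rictor activates, and Cebpb, a transcription factor. Unstimulated libraries held Sgk1 at 59.5, 62.6 and 62.4 CPM. After 1 h its level was 114, 104 and 55.8 CPM, then 62.3, 60.7 and 114 CPM after 2 h, so replicate 3 stood apart from the others at both times. Without replicate 3 it was higher at 1 h by 0.82 (SE 0.070, edgeR adjusted p = 1.09e-05) and lower at 2 h than at 1 h (-0.81, SE 0.079), against 0.57 and -0.20 as labelled. Cebpb had 31.9, 20 and 25.8 CPM unstimulated, then 59.5, 58.9 and 28.3 CPM after 1 h. Without replicate 3 it was at 1.19 at 1 h (SE 0.165, edgeR adjusted p = 0.0141), against 0.92 as labelled. The amino acid transporter gene Slc38a2 was at 0.22 in BMDM at 1 h (SE 0.060, edgeR adjusted p = 0.922) and the autophagy receptor gene Sqstm1 at 0.18 in BMDM and 0.15 in MEF. In MAEC the lysosomal regulator gene Tfe3 was at 0.61 at 2 h (SE 0.159, edgeR adjusted p = 0.539) and Stk11, which encodes the AMPK-activating kinase LKB1, at 0.69 (SE 0.187).

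At 0 h the lysosome and ATF4 lists stood on opposite sides between macrophages and fibroblasts. Of 24 lysosome and autophagy genes 21 were higher in BMDM and 2 lower, with a median of 1.69. The smallest p of that list belonged to the cathepsin genes Ctsd (6.13, SE 0.106) and Ctsb (6.06, SE 0.112). Their folds were not the largest, as Atp6v0d2 was at 511 CPM in BMDM and 0.407 CPM in MEF. Of 20 ATF4 targets 2 were higher and 17 lower, with a median of -2.31, among them the serine synthesis genes Phgdh (-5.04, SE 0.129) and Psat1 (-3.28, SE 0.127). The lysosomal regulator gene Mitf was higher in BMDM by 4.34 (SE 0.206), and Slc7a5, which encodes a leucine transporter subunit, was lower (-4.95, SE 0.191). Of 24 upstream genes 7 were higher and 12 lower, of 22 other nutrient sensing genes 10 and 10, and of 27 downstream genes 12 and 6. Over all genes 68.3% were called (32.7% higher, 35.5% lower). The counts of these lists are to be read against those shares, and their split by direction was not tested. In MAEC against BMDM 18 of 20 ATF4 targets were higher and 18 of 24 lysosome and autophagy genes lower. Over all genes 76.7% were called there (40.6% higher, 36.1% lower), and the medians of all genes were -0.07 and 0.13 in these comparisons.

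Counts of some members are uncertain because exons of a neighbour overlap on the opposite strand and the strand of counting is not given in the sources used here. This holds for Mlst8, Rptor, Akt1s1, Deptor, Prr5l, Tsc2, Rragc, Lamtor1, Slc38a9, Nprl3, Rps6kb1 and Rps6kb2, and Akt2 has an annotated pseudogene.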

How the data were processed

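The values analysed were the expected counts per gene that the authors deposited. RSEM, STAR, cutadapt, FastQC, DESeq2 and R 4.3.2 are named with build GRCm38 in the submitters' processing notes, and settings are not given in the sources used here. RSEM was the only counter named, and all deposited counts were whole. The members and lists were chosen with earlier results of these data known. ImP was tested within each cell type by edgeR 4.0.16 under R 4.3.3 (genes kept by filterByExpr at a count of 10, TMM, robust quasi-likelihood F-test, two-sided, Benjamini-Hochberg over 13251 genes in BMDM, 14066 in MEF and 14779 in MAEC, threshold 0.05). All 46 members passed the filter in BMDM, MEF and the model of 27 libraries (17038 genes), which gave cell type differences and interactions, and 45 did in MAEC. Lengths came from GENCODE M21 (97.3% of symbols matched) and promoters from RefSeq. The 27 replicate pairs all differed beyond counting noise (chi-squared over degrees of freedom at least 5.89), and each library was counted as 1 sample. In each ImP comparison members that passed were named, filled up to 3 per direction by smallest p, and between cell types up to 8 per direction by fold. Alternatives were DESeq2 1.42.0, limma-voom 3.58.1, other scalings and filters, length trend removal, a replicate block and leaving out libraries. The fits were tested on simulated data.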

Additional observations from a re-analysis of the deposited data

How the results depend on the processing

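Only the 3 comparisons between cell types, of 16 comparisons in all, had called members as reported. A count of 0 that stayed 0 was taken as unchanged. Of 145 recomputed counts of called members, leaving out single libraries aside, 142 stayed within 1.5 times the value reported, most of them as 0 that stayed 0. The exceptions were 1 member in BMDM at 2 h against 1 h with replicate 3 left out at both ImP times (0 as labelled), 19 members between BMDM and MEF when a log2 difference of 1 or more was also required (36 without that bound), and 2 members by DESeq2 in the MAEC minus MEF change at 1 h (0 by edgeR). Leaving out each library in turn gave 0 to 1 in that last comparison, 30 to 37 called between BMDM and MEF, 39 to 43 between MAEC and MEF and 39 to 42 between MAEC and BMDM, and 0 in each ImP comparison within a cell type. Fnip2 in BMDM at 1 h against 0 h turned sign to -0.01 without replicate 1 at 0 h, to -0.06 without replicate 3 at 1 h and to -0.06 without replicate 3 at both ImP times. MAEC estimates rest on 3 libraries of 19 to 61 M counts with wide spread, and 37 of 45 intervals lay within 2-fold at 1 h and at 2 h against 0 h.

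Libraries with neighbouring codes were checked as pairs. Over 27 such pairs the correlation of deviations was -0.213 to 0.0983 in BMDM, -0.055 to 0.186 in MEF and -0.0329 to 0.132 in MAEC, with 4 pairs over 0.1. In BMDM, MEF and MAEC 5, 8 and 7 of 9 such pairs were positive, against 10, 8 and 6 of 18 other pairs, and 3, 6 and 5 of 9 libraries correlated best with their own number. The main fits did not pair the libraries by number. Paired libraries need not all exceed 0.1, so these values do not settle whether the numbers mark pairs, in MEF and MAEC above all. With the number as a replicate block edgeR called 0 members in each of the 9 ImP comparisons.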
